A study of Mus musculus with 3 samples.

Results

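Among bone marrow stromal cells of the mouse, 503 LepR+ cells carried transcripts of the chemokine gene Cxcl9 but none of Ly6a, the gene that encodes the surface protein Sca1. They were chosen by their counts of unique molecular identifiers (UMIs): at least 10 of Cxcl12, at least 1 of Lepr, none of the endothelial gene Cdh5, at least 1 of Cxcl9, and none of Ly6a. Of the 24081 cells that passed the filters, 4107 were gated as LepR+ by the first 3 of these criteria. The Cxcl9+Ly6a- cells were 219 of the 1630 gated cells of the 2-mo library, 89 of the 603 of the 12-mo library, and 195 of the 1874 of the 24-mo library. Values given in series are always in this order of age.

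The cells came from untreated wild-type mice aged 2, 12, or 24 mo, with no gene deletion or transgene named for these samples, and by the study's methods its mice were on a C57BL/Ka background. Femurs and tibias were crushed and digested with enzymes, and cells negative for lineage markers, CD45, and CD71 were sorted and sequenced as single cells. Each age was 1 library that pooled the cells of 3 mice, and no barcode names its mouse, so differences between ages have no replicate check and were not tested. Within each library the Cxcl9+Ly6a- cells were compared with 2849 double-negative cells (neither Cxcl9 nor Ly6a) and 512 double-positive cells (both). The 243 cells with Ly6a alone were used for the spread and described by their share and interferon score.

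LepR+ cells are perivascular stromal cells that secrete stem cell factor (encoded by Kitl), CXCL12, and other factors that maintain hematopoietic stem and progenitor cells, and they give rise to adipocytes and osteoblasts in adult marrow. Cxcl9 and Cxcl10 encode chemokines that attract T and NK cells through the receptor CXCR3. Interferon-γ induces both. GAS elements are the usual promoter elements of genes that answer to interferon-γ, and ISRE elements those of genes that answer to type I interferons. Ly6a is itself an interferon-induced gene.

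The label was checked against markers other than those of the gate. Kitl, Adipoq, and Foxc1, genes of LepR+ cells, stood at 2467, 1825, and 697 CPM (counts scaled to the same total in each library and class) in the Cxcl9+Ly6a- cells at 2 mo and at 2247, 902, and 596 CPM at 24 mo. All 4 T and NK cell markers were at 0 in these cells in every library. Pan-hematopoietic markers summed to 3, 11, and 1 UMIs and macrophage and dendritic cell markers to 3, 46, and 6 UMIs, of which 41 at 12 mo were Lyz2 in 1 cell. Pericyte markers were higher in Cxcl9+Ly6a- than in double-negative cells in every library, at 65.0, 60.5, and 87.6 against 46.5, 42.4, and 51.9 CPM, with intervals apart at 2 and 24 mo, and their part in the results was not tested. Endothelial markers summed to 22, 5, and 9 UMIs, and neutrophil markers stood at 26.2, 80.1, and 76.8 CPM, against 39.0, 98.4, and 496 CPM in double-negative cells. Hemoglobin transcripts, which mark erythroid cells and their free RNA, took 1.40%, 0.349%, and 6.79% of the UMIs of Cxcl9+Ly6a- cells and 5.22%, 1.21%, and 15.4% of those of double-negative cells. These UMIs count in the total to which CPM are scaled, and their part in CPM ratios between the 2 classes was not tested. Median depth was 5316, 5582, and 4738 UMIs per Cxcl9+Ly6a- cell and 4874, 5144, and 5124 UMIs per double-negative cell. Libraries shared 20 to 30 barcodes in pairs, and no barcode was a Cxcl9+Ly6a- cell in more than 1 library.

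The upstream sequences of Cxcl9 and of 3 genes described below are shown because interferon-induced genes often hold ISRE and GAS elements near their starts. Each run holds the 250 bases before the transcription start of the RefSeq model (GRCm38.p6), 5′ to 3′ on the strand of the gene, and capitals mark 2 motifs, searched on both strands: the core of an ISRE, here GAAA, any 2 bases, and GAAA, and the GAS motif TTCNNNGAA. The windows are chr5:92328080-92328329 (minus strand) for Cxcl9, chr5:92348890-92349139 (minus strand) for Cxcl10, chr3:142620413-142620662 (plus strand) for Gbp2, and chr11:58199306-58199555 (plus strand) for Igtp.
Cxcl9: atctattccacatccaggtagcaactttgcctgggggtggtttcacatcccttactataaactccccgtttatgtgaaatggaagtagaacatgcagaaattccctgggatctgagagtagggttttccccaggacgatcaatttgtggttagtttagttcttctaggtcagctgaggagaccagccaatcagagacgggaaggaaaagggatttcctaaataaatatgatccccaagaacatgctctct
Cxcl10: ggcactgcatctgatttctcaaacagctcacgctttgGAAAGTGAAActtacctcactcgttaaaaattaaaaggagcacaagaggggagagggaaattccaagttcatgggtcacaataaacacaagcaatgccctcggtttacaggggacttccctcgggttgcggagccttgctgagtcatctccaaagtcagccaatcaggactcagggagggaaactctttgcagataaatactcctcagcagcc
Gbp2: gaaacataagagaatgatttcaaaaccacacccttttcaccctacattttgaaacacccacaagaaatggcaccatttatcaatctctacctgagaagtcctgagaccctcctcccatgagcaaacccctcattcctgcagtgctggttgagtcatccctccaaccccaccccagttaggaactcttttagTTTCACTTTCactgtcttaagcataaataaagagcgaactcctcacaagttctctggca
Igtp: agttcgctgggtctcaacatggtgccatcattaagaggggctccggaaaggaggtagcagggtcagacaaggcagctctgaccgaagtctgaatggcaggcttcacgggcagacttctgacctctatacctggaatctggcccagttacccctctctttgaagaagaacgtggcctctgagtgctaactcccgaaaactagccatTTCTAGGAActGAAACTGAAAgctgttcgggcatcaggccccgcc
Cxcl10 held the ISRE core GAAAGTGAAA starting 213 bases before the start site, Gbp2 held it on the opposite strand 59 bases before, and Igtp held GAAACTGAAA 34 bases before and the GAS motif TTCTAGGAA 45 bases before. These letters were not in the Cxcl9 window. Over windows that also take in the first 50 transcribed bases, 10 of the 11 interferon-induced GTPase genes with a window held the ISRE core, against 3.99% of 27025 genes, and 6 of 11 held the GAS motif, against 9.55% of all genes. Among 18 hematopoietic niche factors with a window, 1 held the ISRE core and 0 held the GAS motif. A match of letters describes a window and does not show binding.

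The share of Cxcl9+Ly6a- cells among gated LepR+ cells lay between 10.4% and 14.8% at the 3 ages. It was 13.4% (95% interval 11.8% to 15.2%) at 2 mo, 14.8% (12.0% to 17.8%) at 12 mo, and 10.4% (9.06% to 11.9%) at 24 mo, with exact Clopper-Pearson intervals that cover counting error only. The intervals at 12 and 24 mo did not overlap, and that at 2 mo overlapped the interval at 12 mo and, between 11.8% and 11.9%, that at 24 mo. Over the same ages double-positive cells went from 0.429% to 5.80% to 25.1% of gated cells. Cxcl9+Ly6a- cells made up 96.9%, 71.8%, and 29.3% of all LepR+ cells with Cxcl9. When each cell was thinned to 2000 UMIs, the share of Cxcl9+Ly6a- cells was 8.50%, 11.2%, and 9.94%, and the order of the ages changed.

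**Figure D1:**
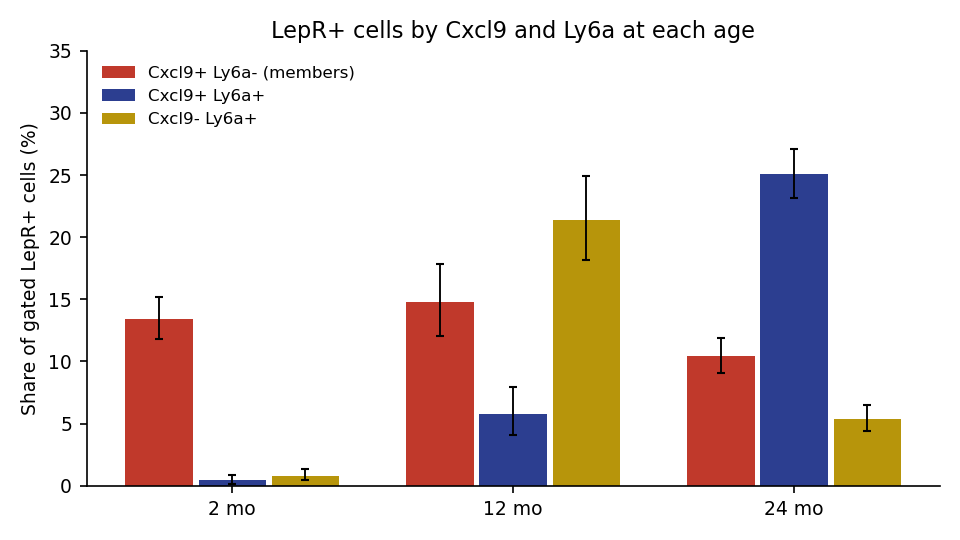
Share of gated LepR+ cells (%) that were Cxcl9+Ly6a-, Cxcl9+Ly6a+, or Cxcl9-Ly6a+ in the library of each age (mo), with exact 95% binomial intervals as error bars. The Cxcl9+Ly6a- share lay between 10.4% and 14.8%, while the Cxcl9+Ly6a+ share reached 25.1% at 24 mo.

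At 2 and 12 mo the share also differed by sex, which was read from Xist (female) and Y-linked UMIs (male). Where a cell had Xist but lacked Y-linked UMIs, Cxcl9+Ly6a- cells were 30.2%, 21.3%, and 9.32% of gated cells, and in cells with Y-linked UMIs and no Xist they were 11.8%, 8.50%, and 10.2%. At 24 mo the intervals of both overlapped (5.31% to 14.9% and 8.42% to 12.2%). Double-positive cells were 0.862%, 2.46%, and 1.24% of gated cells with Xist, but 0.217%, 10.1%, and 27.0% of those with Y-linked UMIs. Accordingly, Cxcl9+Ly6a- cells were 97.2%, 89.7%, and 88.2% of the Cxcl9+ cells with Xist. The last of these shares was of 17 cells, with an interval of 63.6% to 98.5%. Of the Cxcl9+ cells with Y-linked UMIs they were 98.2%, 45.7%, and 27.4%. This share was thus lower at 12 and 24 mo than at 2 mo in both groups, and by more in cells with Y-linked UMIs. The difference between the groups was not tested. Cells with Xist were 24.3% of the Cxcl9+Ly6a- cells that could be sexed at 2 mo but 8.97% of the double-negative cells, 71.2% against 60.9% at 12 mo, and 12.6% against 19.7% at 24 mo. With 3 pooled mice in a library, sex and single mice cannot be told apart.

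Most Cxcl9+Ly6a- cells held few Cxcl9 transcripts. Exactly 1 Cxcl9 UMI was found in 111 of 219 cells at 2 mo, 36 of 89 at 12 mo, and 80 of 195 at 24 mo. At least 10 UMIs were found in 26, 7, and 46 cells, and single cells reached 166, 180, and 118 UMIs. The summed Cxcl9 level was 1010.5, 1019.8, and 1547 CPM, values that the choice of cells fixed to be above 0. As a measure of free RNA, Cxcl9 was found in 0.283%, 0.224%, and 2.33% of erythroid cells (hemoglobin over 20% of UMIs and no Lepr; median depths of 9825.5, 8382, and 7561 UMIs), against 13.9%, 20.6%, and 35.5% of gated cells (4907, 5796, and 4592 UMIs). At 2000 UMIs per cell the erythroid shares were 0.0510%, 0.0887%, and 0.362%, and those of gated cells 8.57%, 13.9%, and 30.2%. The part of free RNA in the cells with 1 UMI was not tested.

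Cells just inside and just outside the limits of the rule were described by the summed CPM of 61 interferon-induced genes (GTPases and antiviral genes). Cells with exactly 1 Cxcl9 UMI stood at 7536, 8206, and 6881 CPM, and those with none at 5921, 6826, and 4928 CPM. On the side of Ly6a, cells with Cxcl9 and exactly 1 Ly6a UMI, which were left out, numbered 4, 5, and 66 and stood at 4957, 16279, and 15732 CPM. With exactly 1 Lepr UMI there were 22, 3, and 15 Cxcl9+Ly6a- cells, and 10, 6, and 16 cells were left out for having no Lepr alone. Cdh5 alone left out 3, 1, and 0 cells, and with 10 to 12 Cxcl12 UMIs there were 0, 0, and 3 Cxcl9+Ly6a- cells, against 0, 0, and 5 left out with 7 to 9.

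Against double-negative LepR+ cells of the same libraries, Cxcl9+Ly6a- cells had higher levels of Cxcl10 and of 3 other interferon-induced genes. UMIs were summed per library and class and tested with edgeR's quasi-likelihood test over 9922 genes, with the library as a block. At a Benjamini-Hochberg adjusted p below 0.05, 4 genes (0.0403% of those tested) were higher and 0 (0%) lower, and at an unadjusted p below 0.05, 171 (1.72%) were higher and 114 (1.15%) lower. The 4 genes were Cxcl10, Gbp2, Gbp4, and Ifi27l2a. By DESeq2, 5 genes were higher and 0 lower, with Gbp2 the one gene shared. Without the 2-mo library edgeR called 0 genes (162 higher and 103 lower at an unadjusted p below 0.05), and without the 24-mo library 2, of which Cxcl10 was 1. Over all alternative settings the number of genes called higher ranged from 0 to 51.

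Cxcl10 (chromosome 5, 92346638 to 92348889, GRCm38) and Cxcl9 (chromosome 5, 92321347 to 92328079) lie on the same strand. Cxcl10 stood at 111, 427, and 159 CPM in Cxcl9+Ly6a- cells and at 5.76, 24.9, and 1.62 CPM in double-negative cells, so that the lowest library of the first class lay above the highest of the second. The ratio was 19.3 at 2 mo (95% interval 13.6 to 27.8), 17.2 at 12 mo (12.7 to 23.7), and 98.1 at 24 mo (54.8 to 193). The fitted log2 ratio over the 3 libraries was 4.60 ± 0.67 (SE), with an adjusted p of 0.0155 in edgeR's quasi-likelihood test. Few cells carried these transcripts: Cxcl10 was found in 17, 13, and 19 of the Cxcl9+Ly6a- cells, and 1 cell held 67.1% of the 240 UMIs at 12 mo.

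The interferon-induced GTPases, which attack the vacuoles of intracellular pathogens, had the largest median increase of the lists. Erythroid and neutrophil markers had medians of larger size in the other direction (-1.62 over 4 genes tested and -1.65 over 2). Gbp2 (chromosome 3, 142620602 to 142638008) stood at 76.1, 90.8, and 203 CPM in Cxcl9+Ly6a- cells and at 30.1, 50.7, and 33.9 CPM in double-negative cells, with no overlap between the classes. Its log2 ratio was 1.56 ± 0.25 (SE) with an adjusted p of 0.0270 by edgeR. Gbp4 (chromosome 5, 105115767 to 105139586) had 3, 3, and 69 UMIs in Cxcl9+Ly6a- cells and 0, 5, and 3 UMIs in double-negative cells. The call for Gbp4 (edgeR, adjusted p of 0.00683) thus rested on the 24-mo library, where the ratio was 152 (49.9 to 756), and at 12 mo the ratio of 2.19 had an interval of 0.340 to 11.3. Ifi27l2a (chromosome 12, 103442167 to 103443680), an interferon-induced gene of the antiviral list, stood at 7.14, 17.8, and 55.4 CPM against 2.41, 4.39, and 7.02 CPM (log2 ratio of 2.38 ± 0.38 (SE), adjusted p of 0.0270 by edgeR), and the highest double-negative library nearly reached the lowest of the other class. At 2 mo 1 cell held 6 of the 9 Ifi27l2a UMIs, and after thinning 0.476% of Cxcl9+Ly6a- and 0.538% of double-negative cells had a UMI. Without the 24-mo library the log2 ratio of Ifi27l2a was 1.72 (adjusted p of 0.946 by edgeR).

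Of the 18 GTPases, 14 were tested, and 13 of them were higher in Cxcl9+Ly6a- than in double-negative cells in all 3 libraries, against 15.9% of all genes tested. All 14 had an unadjusted p below 0.05, 2 passed the adjusted threshold, and the median log2 ratio was 1.58, against -0.00 over all genes. The median was 0.52 in cells with Xist and 2.24 in thinned cells. Iigp1, an immunity-related GTPase, stood at 895, 1406, and 1402 CPM in Cxcl9+Ly6a- cells and at 316, 599, and 234 CPM in double-negative cells (log2 ratio of 1.59 ± 0.36 (SE), adjusted p of 0.231 by edgeR). Igtp stood at 46.8, 90.8, and 88.5 CPM against 23.4, 33.1, and 15.9 CPM, without overlap. The lowest log2 ratio was that of Gvin1, at 0.70, which was lower in Cxcl9+Ly6a- cells at 12 mo. The other 4 genes of the list (Gbp8, Gbp9, Gbp10, and Tgtp1) had too few UMIs to be tested, from 0 to 8 per library in Cxcl9+Ly6a- cells. Several of these genes have close copies, and how the authors' counting divided reads between them was not tested.

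**Figure D2:**
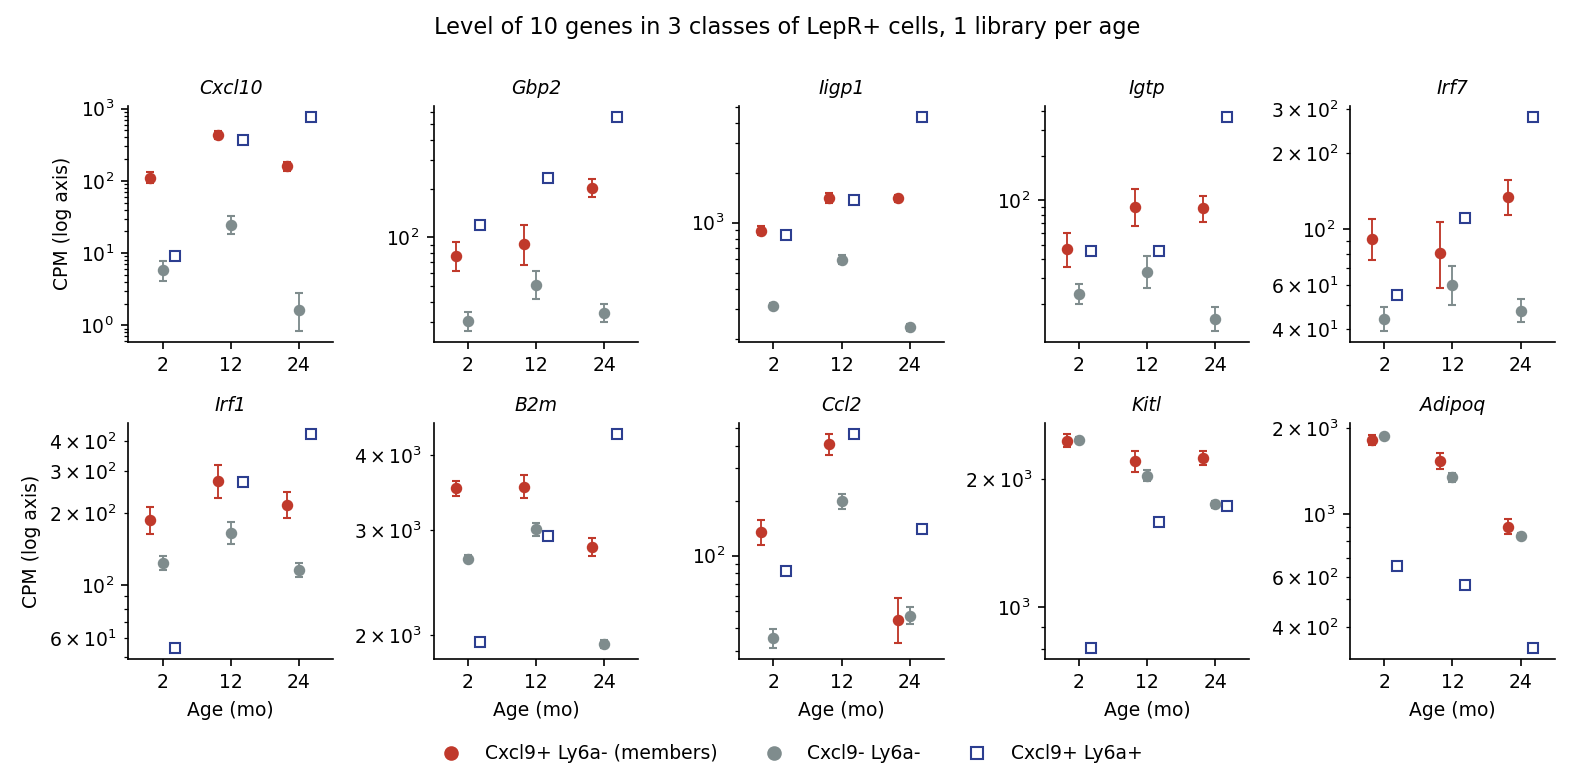
Level of 10 genes in CPM (log axis, a different range in each panel) in Cxcl9+Ly6a- cells, Cxcl9-Ly6a- cells, and Cxcl9+Ly6a+ cells against age in mo; each point is 1 class in 1 library, and error bars, drawn for the first 2 classes, are exact 95% Poisson intervals. Cxcl10, Gbp2, Iigp1, Igtp, Irf7, and Irf1 were higher in Cxcl9+Ly6a- than in Cxcl9-Ly6a- cells in each library, while Kitl and Adipoq lay close together in these 2 classes at 2 mo.

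Antiviral genes and the machinery that loads peptides on MHC class I moved less. Of 41 antiviral genes tested, 32 were higher in Cxcl9+Ly6a- cells in all 3 libraries, 23 had an unadjusted p below 0.05, and 1, Ifi27l2a, passed the adjusted threshold, with a median log2 ratio of 0.51. Zbp1, a sensor of viral nucleic acid, stood at 53.1, 89.0, and 101 CPM against 21.6, 40.9, and 23.9 CPM, and the classes did not overlap (log2 ratio of 1.42, adjusted p of 0.231 by edgeR). Of 20 MHC class I genes, 16 were higher in all 3 libraries and 9 had an unadjusted p below 0.05, none passed the adjusted threshold, and the median was 0.39. B2m, the light chain shared by these molecules, stood at 3518, 3538, and 2808 CPM against 2684, 3007, and 1936 CPM, so the 24-mo library of the first class lay below the 12-mo library of the second. Tap1, a peptide transporter, was 1.72-, 2.05-, and 2.58-fold higher by library, and each interval lay above 1 (1.41 to 2.09, 1.57 to 2.66, and 2.14 to 3.10).

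Receptors and signal transducers of interferon differed by smaller ratios, and none of the 18 passed the adjusted threshold (5 had an unadjusted p below 0.05, all higher; median log2 ratio of 0.29). Irf7, a transcription factor of the interferon response, stood at 91.2, 80.1, and 134 CPM in Cxcl9+Ly6a- cells and at 44.1, 59.9, and 47.4 CPM in double-negative cells, without overlap (log2 ratio of 0.95, adjusted p of 0.302 by edgeR). Irf7 was higher by 2.07-fold at 2 mo (1.66 to 2.57), 1.34-fold at 12 mo (0.928 to 1.89), and 2.83-fold at 24 mo (2.32 to 3.43). Irf1 was higher by 1.51-, 1.64-, and 1.88-fold. Ifnar2, a chain of the type I interferon receptor, stood at 494, 477, and 374 CPM against 398, 311, and 302 CPM, while Ifngr1, the ligand-binding chain for interferon-γ, had ratios of 1.15, 0.95, and 1.25. Of 9 interferon-induced immune regulators, 7 were higher in all 3 libraries and 4 had an unadjusted p below 0.05 (median 0.34). Serpina3g and Serpina3f, which inhibit proteases, had log2 ratios of 0.85 ± 0.20 and 1.09 ± 0.28 (SE).

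Chemokine genes were higher at the median in each library, though single genes differed. Of 9 chemokine genes tested by edgeR, Cxcl10 passed the adjusted threshold, and 4 had an unadjusted p below 0.05, all higher. The median log2 ratio was 0.56, and by library 0.85, 0.61, and 0.24. In all 3 libraries 3 of the genes were higher and 0 lower. Ccl2, which attracts monocytes, stood at 134, 406, and 44.7 CPM in Cxcl9+Ly6a- cells and at 35.3, 198, and 46.9 CPM in double-negative cells. Its ratio was 3.79 at 2 mo (3.11 to 4.62), 2.05 at 12 mo (1.73 to 2.41), and 0.953 at 24 mo (0.694 to 1.28). Cxcl14, an abundant chemokine of LepR+ cells, stood at 3580, 3355, and 2838 CPM against 3696, 3386, and 2738 CPM (log2 ratio of -0.05 ± 0.17 (SE)). Of 19 NF-κB and acute-phase genes, 3 were higher and 1 lower in all 3 libraries, with a median of 0.07.

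Genes by which LepR+ cells support hematopoiesis gave no call between Cxcl9+Ly6a- and double-negative cells. Of 18 niche factors tested, none had an unadjusted p below 0.05, 4 were higher and 1 lower in all 3 libraries, and the median log2 ratio was 0.10. Kitl stood at 2467, 2203, and 2247 CPM against 2474, 2038, and 1746 CPM, with ratios of 0.997 (0.960 to 1.04), 1.08 (1.01 to 1.15), and 1.29 (1.23 to 1.34). Il7, required for B lymphopoiesis, stood at 195, 87.2, and 66.1 CPM against 158, 113, and 68.8 CPM, with ratios of 1.23 (1.07 to 1.41), 0.771 (0.555 to 1.05), and 0.962 (0.743 to 1.23). Csf1, a growth factor of macrophages, had ratios of 1.08 (0.987 to 1.18), 0.938 (0.801 to 1.10), and 1.31 (1.18 to 1.46). Cxcl12, which the gate used, stood at 27002, 23017, and 22339 CPM against 27332, 20307, and 20608 CPM.

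Differentiation genes gave medians near 0 or below. The 14 transcription factors of LepR+ cells had a median log2 ratio of -0.00 and the 11 adipogenic genes of 0.12, with Adipoq, the adipocyte hormone that LepR+ cells also express, at ratios of 0.971, 1.14, and 1.08. The 15 osteogenic genes had a median of -0.53, 7 were lower in all 3 libraries (12.2% of all genes were), and none passed the adjusted threshold. Osteoblast markers summed to 4995, 3118, and 3781 CPM in Cxcl9+Ly6a- cells and 4681, 4723, and 3842 CPM in double-negative cells, and their part in this median was not tested. All 18 osteogenic genes summed to 11428, 8576, and 8382 CPM in Cxcl9+Ly6a- cells and 10874, 16894, and 7730 CPM in double-negative cells. The sum was thus lower in Cxcl9+Ly6a- cells at 12 mo alone, unlike the median. Bglap, which encodes osteocalcin, stood at 19.0, 14.2, and 3.57 CPM in Cxcl9+Ly6a- cells and at 30.9, 107, and 8.10 CPM in double-negative cells. The difference in this list was widest at 12 mo, where its median was -1.11, against -0.18 at 2 mo and -0.20 at 24 mo. Ribosomal protein genes, a check of scaling, had a median of 0.01 over 78 genes, and by library 0.05, 0.19, and -0.20.

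**Figure D3:**
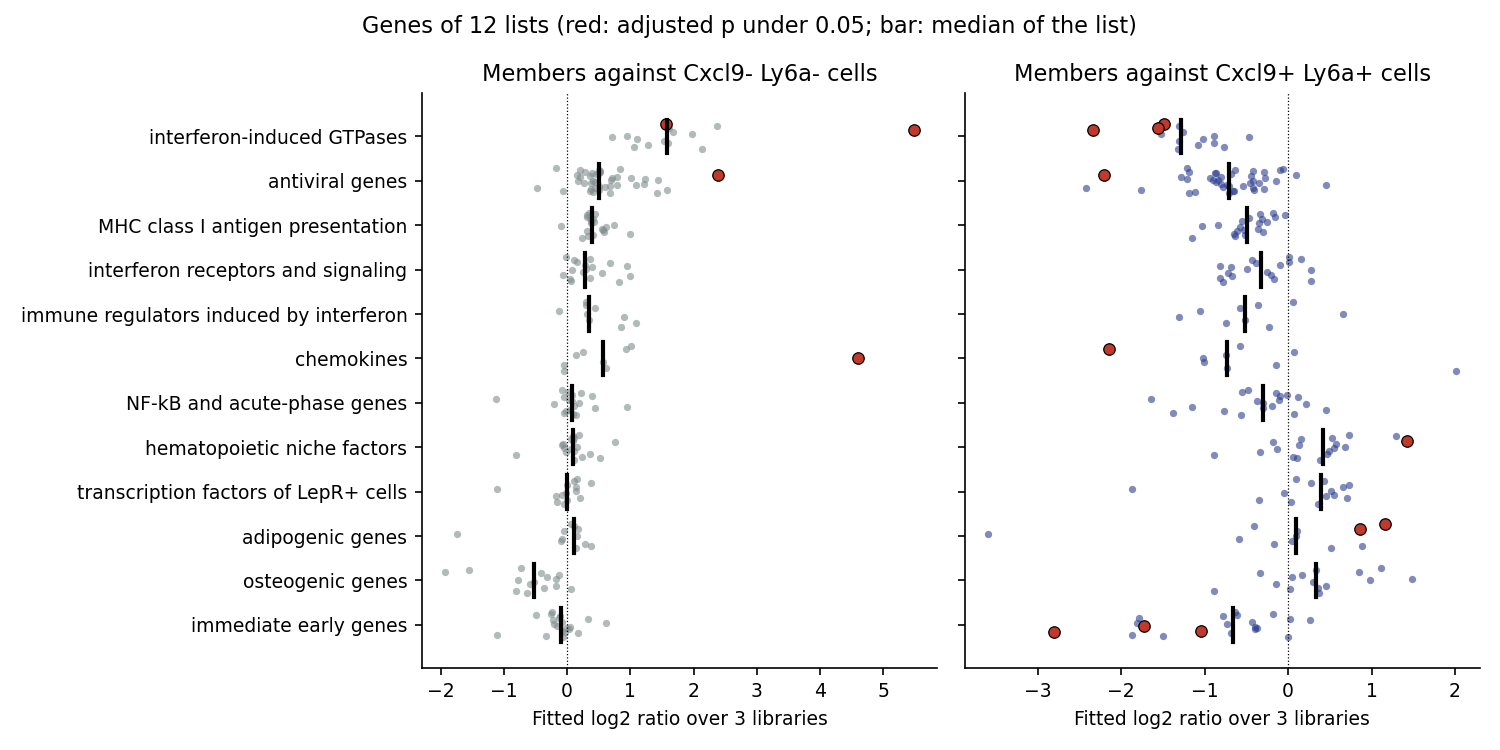
Fitted log2 ratio over the 3 libraries of each tested gene of 12 lists, in Cxcl9+Ly6a- cells against Cxcl9-Ly6a- cells (left) and against Cxcl9+Ly6a+ cells (right), with points for genes, black bars for list medians, and red for an adjusted p below 0.05. The GTPase median was 1.58 on the left and -1.28 on the right, while the niche factor medians were 0.10 and 0.42.

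Single Cxcl9+Ly6a- cells varied widely in their interferon-induced transcripts. For each cell a score was taken as the UMIs of 61 genes (GTPases and antiviral genes) per 10000 UMIs. Its median was 78.3, 91.7, and 97.6 in Cxcl9+Ly6a- cells and 58.7, 67.8, and 57.7 in double-negative cells. The 95th percentile of double-negative cells was exceeded by 20.1%, 18%, and 42.6% of Cxcl9+Ly6a- cells, while 22.8%, 21.3%, and 21% lay at or below the double-negative median. At 2000 UMIs per cell, which left out 9, 5, and 22 Cxcl9+Ly6a- cells and 91, 41, and 94 double-negative cells, the shares above that percentile were 15.2%, 19.0%, and 36.4%. The upper tail at 24 mo was long, with a 95th percentile of 284 in Cxcl9+Ly6a- cells, against 216 at 2 mo and 191 at 12 mo. Of the 13, 129, and 101 cells with Ly6a alone, 15.4%, 3.10%, and 29.7% exceeded the 95th percentile of double-negative cells. Their median scores were 72.4, 70.0, and 90.9, so at 24 mo cells without Cxcl9 also had raised scores.

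**Figure D4:**
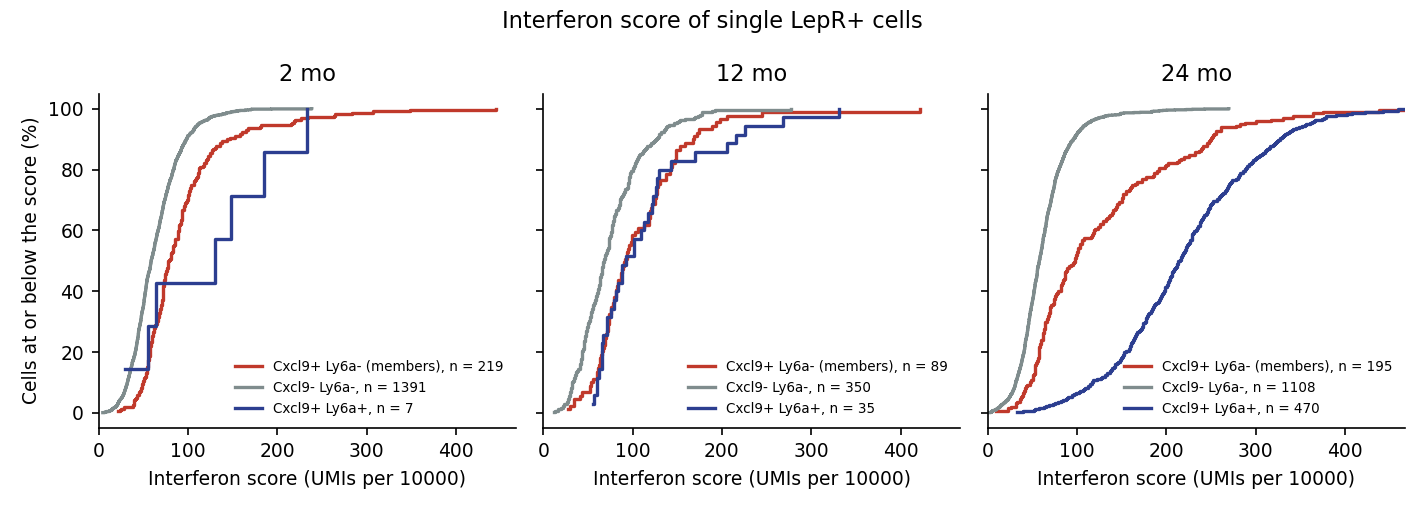
Cumulative share of cells (%) at or below each interferon score (UMIs of 61 genes per 10000 UMIs) in Cxcl9+Ly6a-, Cxcl9-Ly6a-, and Cxcl9+Ly6a+ cells of each library. The Cxcl9+Ly6a- curve lay to the right of the Cxcl9-Ly6a- curve at each age, and at 24 mo it lay between the other 2 classes.

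The summed level of these 61 genes was higher in cells with more Cxcl9 UMIs at 12 and 24 mo. In Cxcl9+Ly6a- cells at 24 mo it was 6881 CPM with 1 Cxcl9 UMI (95% interval 6661 to 7106), 8713 with 2 to 3, 11206 with 4 to 9, and 16705 with 10 or more (16186 to 17236). At 12 mo it was 8206, 8939, 10313, and 15359.8 CPM, the last in 7 cells. At 2 mo it was 7536, 8178, 12031, and 10169.6 CPM, so the highest step was 4 to 9 UMIs. Kitl took a different order at each age: over the same steps it stood at 2072, 2357, 2385, and 2469.9 CPM at 24 mo but at 2568, 2563, 2189, and 2217 CPM at 2 mo. Cells of 1 library are not replicates, so these are descriptions. Double-positive cells at 24 mo with the same numbers of Cxcl9 UMIs had 11557, 14564, 18561, and 23272 CPM of the 61 genes, above the Cxcl9+Ly6a- cells at each step, and 1203, 1812, 1737, and 1806 CPM of Kitl, below them at each step.

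**Figure D5:**
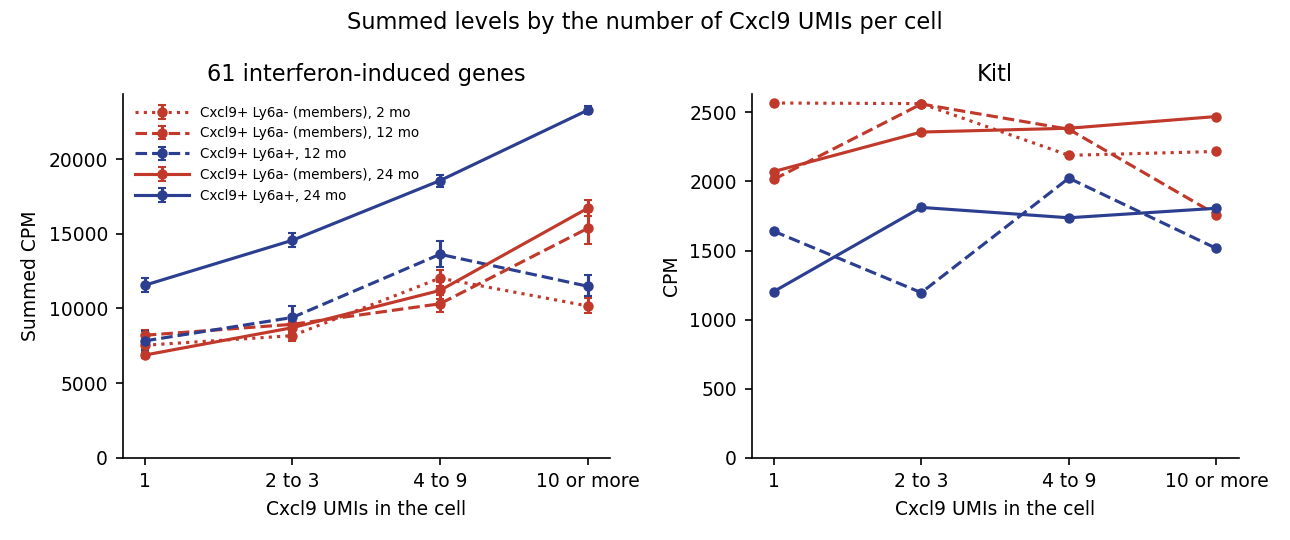
Summed CPM of 61 interferon-induced genes (left) and CPM of Kitl (right) against the number of Cxcl9 UMIs per cell, for Cxcl9+Ly6a- cells at 2, 12, and 24 mo and Cxcl9+Ly6a+ cells at 12 and 24 mo, with sums over the cells of 1 library as points and exact 95% Poisson intervals as error bars on the left. At 24 mo the left curve of Cxcl9+Ly6a- cells went from 6881 to 16705 CPM and stayed below that of Cxcl9+Ly6a+ cells.

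The genes whose counts went most with those of Cxcl9 over gated cells were interferon-induced. By the mean of Spearman's rho over the 3 libraries, in 1529, 555, and 1710 cells thinned to 2000 UMIs and over 5272 genes, they were Iigp1 (0.36), H2-T23 (0.27), Gbp2 (0.27), Igtp (0.27), and Ifitm3 (0.25). For Iigp1 rho was 0.15, 0.23, and 0.69 in the order of age. The gated cells include double-positive cells, which were 1 of 131, 15 of 77, and 347 of 517 of the thinned cells with Cxcl9. Their part in rho was not tested, and Cxcl9 is itself a gene of the rule. Cells of a library share depth, free RNA, and their mice, so these values are descriptions.

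Double-positive LepR+ cells also carry Cxcl9, and differ by the rule in Ly6a. Of the same 9922 genes, 26 (0.262%) were higher and 26 (0.262%) lower in Cxcl9+Ly6a- cells (edgeR, adjusted p below 0.05). The 2-mo library had 7 double-positive cells, in which hemoglobin took 51.3% of UMIs. Hemoglobin is part of the total to which CPM are scaled, so it lowers the CPM of other genes in that sum. Without cells over 5% hemoglobin, 5 of the 7 cells and 30131 of their 109776 UMIs were left. Its part in the 2-mo ratios below was not tested. Without the 2-mo library 3 genes were higher and 6 lower, of which 7 were among the 52. With only these 2 classes in the fit 5 were higher and 7 lower. Both comparisons use the same sums of Cxcl9+Ly6a- cells and are therefore not independent.

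Gas6, Adipoq, Pappa, and Cpxm1 were among the genes higher in the cells without Ly6a. Gas6, a ligand of TAM receptor kinases, stood at 3468, 1961, and 2291 CPM in Cxcl9+Ly6a- cells and at 656, 769, and 801 CPM in double-positive cells (log2 ratio of 1.43 ± 0.20 (SE), adjusted p of 0.00478 by edgeR). The double-negative cells stood at 3518, 1682, and 2021 CPM, and both classes without Ly6a lay above every double-positive library. Adipoq stood at 1825, 1539, and 902 CPM against 656, 563, and 336 CPM (log2 ratio of 1.17 ± 0.21 (SE), adjusted p of 0.0184 by edgeR). Pappa, a protease that frees insulin-like growth factors, stood at 961, 552, and 679 CPM against 164, 193, and 221 CPM, and Cpxm1, a carboxypeptidase family member, at 150, 112, and 89.4 CPM against 18.2, 36.0, and 24.4 CPM. Cpxm1 was called in 12 of 13 alternative settings, including each of those without 1 library. Pappa was called in 12, Gas6 in 10, and Adipoq in 8 of the 13. Pappa and Gas6 were not called without the 2-mo library, and Adipoq was not called in any setting without 1 library. Other genes higher by the adjusted edgeR test were the BMP antagonists Chrdl1 and Grem1, the Wnt agonist Rspo2, Bmp6, Ogn, Angptl1, Abi3bp, Agt, and Aldh1a2. Calls of these genes ranged from 5 of 13 settings (Agt) to 12 of 13 (Ogn and Angptl1). Agt and Grem1 were not called in any setting without 1 library. The largest log2 ratios by the rule for named genes were those of Nxph1 (3.01), Cnnm1 (2.64), Adamdec1 (2.61), Slco1a4 (2.55), and Abat (2.34), all at low levels, with 0 UMIs in at least 1 double-positive library for each except Cnnm1.

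Of the lists, 3 of 14 GTPases, 3 of 20 immediate early genes, and 3 of 38 matrix genes were lower in the cells without Ly6a by the adjusted test. None of their members was higher by that test. The chemokine and antiviral lists had 1 lower gene each. Matrix genes did not move as a list: their median log2 ratio was -0.03, and at an unadjusted p below 0.05 (edgeR) 5 were higher and 12 lower. Klf4, a transcription factor, stood at 13.5, 48.1, and 5.36 CPM in Cxcl9+Ly6a- cells and at 36.4, 324, and 33.5 CPM in double-positive cells (log2 ratio of -2.80 ± 0.26 (SE), adjusted p of 6.08e-05 by edgeR), and it was called in 12 of 13 alternative settings. Dcn, the matrix proteoglycan decorin, stood at 171, 781, and 690 CPM against 200, 2241, and 1265 CPM (log2 ratio of -1.21, adjusted p of 0.00824 by edgeR). Mgp, an inhibitor of calcification, stood at 1130.2, 5652, and 6973 CPM against 4418, 15878, and 13873 CPM (log2 ratio of -1.76, adjusted p of 0.0396 by edgeR). Dcn was called in 9 and Mgp in 7 of 13 settings, and neither was called without the 2-mo or without the 12-mo library. Gbp2, Gbp3, and Gbp4 were lower, as were Ifi27l2a, Ifi207, and Ifi205. The GTPase list had 3 of 14 genes lower and a median log2 ratio of -1.28, and by library the median was -0.15 at 2 mo, -0.15 at 12 mo, and -1.73 at 24 mo. The largest negative log2 ratios by the rule for named genes, beside Klf4, Gbp4 (-2.34), and Ifi27l2a (-2.20), were those of Col2a1 (-3.22) and Scd1 (-2.01). Col2a1 was not called with at least 2 Cxcl9 UMIs (-0.57), without cells high in hemoglobin (-1.06), with at least 20 Cxcl12 UMIs (-1.20), or without the 24-mo library (-1.65), where Scd1 was not called either (-1.04). Of 18 niche factors, Gas6 was higher by the adjusted test, 8 had an unadjusted p below 0.05 (at that limit 4.13% of all genes were higher and 4.88% lower), all higher in Cxcl9+Ly6a- cells, and the median was 0.42. Kitl stood at 802, 1586, and 1729 CPM in double-positive cells, with ratios of 3.08 (2.49 to 3.85), 1.39 (1.25 to 1.55), and 1.30 (1.23 to 1.37). The ratio at 2 mo rests on the 7 double-positive cells with 51.3% hemoglobin UMIs, and its interval covers counting error only.

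Between 2 and 24 mo of age, Cxcl9+Ly6a- cells differed at 1.5-fold or more in 1188 genes that were higher (12.5% of 9469 genes with at least 20 UMIs) and 1070 that were lower (11.3%). With intervals that left out 1, the numbers were 633 (6.68%) each way. The median log2 ratio over all genes was -0.04 in Cxcl9+Ly6a- cells and -0.14 in double-negative cells. With 1 library per age these are differences between 2 libraries and had no test.

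At the median of the list, interferon-induced GTPases and antiviral genes were higher in Cxcl9+Ly6a- cells of the 24-mo than of the 2-mo library. The medians of both lists in double-negative cells were below 0. Of 14 GTPases, 12 were higher by 1.5-fold and none lower, with a median log2 ratio of 0.85, against -0.17 in double-negative cells. Of 40 antiviral genes, 21 were higher and 1 lower (median 0.71, against -0.15 in double-negative cells). As sums in Cxcl9+Ly6a- cells, GTPases went from 1497 to 2569 CPM. Antiviral genes stood at 7153 CPM (7006 to 7302) at 2 mo and 7260 CPM (7103 to 7420) at 24 mo. Cells with 1 Cxcl9 UMI had 6881 CPM of the 61 genes of both lists at 24 mo, against 7536 at 2 mo. With 2 to 3, 4 to 9, and 10 or more UMIs it was 8713 against 8178, 11206 against 12031, and 16705 against 10169.6 CPM. Gbp2 was 2.66-fold higher at 24 mo (95% interval 2.09 to 3.42; 1.13-fold in double-negative cells), and Igtp was 1.89-fold higher (1.36 to 2.66; 0.680-fold in double-negative cells). Iigp1 was 1.57-fold higher (1.45 to 1.69; 0.741-fold), and its level at 12 mo, 1406 CPM, was close to that at 24 mo, 1402 CPM. Of the MHC class I genes, 1 of 20 was higher and none lower, with a median of -0.01 (-0.35 in double-negative cells). The sum of that list in Cxcl9+Ly6a- cells went from 19610 to 15767 CPM. By sex the order of the ages was not the same, a difference that was not tested: Iigp1 went from 578 to 1216 CPM and Gbp2 from 60.6 to 192 CPM in Cxcl9+Ly6a- cells with Y-linked UMIs, but from 1416 to 962 CPM and from 89.5 to 75.9 CPM in those with Xist, of which there were 35 at 2 mo and 15 at 24 mo. Hemoglobin was higher at 24 than at 2 mo in both classes, and its part in these ratios was not tested.

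Niche and adipogenic genes were lower at 24 mo in both classes. Of 18 niche factors, 8 were lower and 2 higher in Cxcl9+Ly6a- cells (median log2 ratio of -0.30, and -0.67 in double-negative cells). Kitl had a ratio of 0.911 (0.864 to 0.961) in Cxcl9+Ly6a- cells and 0.706 in double-negative cells, Csf1 of 0.833 (0.734 to 0.946) and 0.685, and Il7 of 0.339 (0.258 to 0.441) and 0.434. Bmp4 went from 398 to 173 to 72.4 CPM over the 3 ages. Of 10 adipogenic genes, 7 were lower and none higher (median -0.82, and -1.0 in double-negative cells), among them Adipoq with a ratio of 0.494 (0.458 to 0.532). Of 16 immediate early genes, 13 were lower (median -1.07, and -1.17 in double-negative cells), and Fosb had a ratio of 0.215 (0.160 to 0.284). Matrix genes went either way, with 6 of 36 higher and 7 lower, and Mgp was 6.17-fold higher (5.83 to 6.53; 5.53-fold in double-negative cells). Of 23 cell cycle genes, 13 were higher and none lower (median 0.73, and 0.60 in double-negative cells).

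By the rule for named genes, the largest increases from 2 to 24 mo among genes with at least 50 UMIs were those of Snhg11 (4 UMIs at 2 mo and 436 at 24 mo), C130026I21Rik (1 and 55), Shisa3 (2 and 102), Gbp4 (3 and 69), and Csprs (11 and 106). All except Gbp4 also differed in double-negative cells, with ratios of 199.7 for Snhg11, 178 for C130026I21Rik, 31.5 for Shisa3, and 26.5 for Csprs. Gbp4 had 0 UMIs in double-negative cells at 2 mo and 3 at 24 mo. The largest decreases were those of Kit (65 UMIs at 2 mo and 3 at 24 mo), Rbp4 (51 and 6), Bmp4, Fosb, and Col11a1 (68 and 13). Kit, the receptor of stem cell factor, is a gene of hematopoietic progenitors. It was found in 21 of the 219 cells at 2 mo, where 5 cells held 58.5% of its UMIs, and in double-negative cells its ratio was 1.14.

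Within cells of 1 sex the contrast of Cxcl9+Ly6a- with double-negative cells kept its direction for Iigp1. In cells with Y-linked UMIs Iigp1 was 2.19-, 4.83-, and 5.2-fold higher, and in cells with Xist 1.70-, 1.59-, and 2.65-fold, with every interval above 1. Gbp2 was 2.31-, 3.4-, and 5.79-fold higher in cells with Y-linked UMIs, whereas in cells with Xist its ratios were 1.89, 0.988, and 1.56, with intervals of 1.00 to 3.54, 0.558 to 1.68, and 0.536 to 3.78. Of the other called genes, Ifi27l2a turned in part: in cells with Y-linked UMIs at 2 mo it had 0 UMIs in Cxcl9+Ly6a- cells and 9 in double-negative cells, and in cells with Xist at 24 mo 0 and 13 (intervals of the ratio 0 to 3.56 and 0 to 2.82). Gbp4 had a ratio of 1.03 (0.0978 to 6.27) in cells with Xist at 12 mo. Cxcl10 at 12 mo was 12.8-fold higher (6.82 to 25.3) in cells with Y-linked UMIs and 14.6-fold higher (10.2 to 21.5) in cells with Xist. The Cxcl9+Ly6a- cells of these groups held 35 and 205 Cxcl10 UMIs. Of the latter, 161 were in 1 cell, so the ratio in cells with Xist rested largely on that cell.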

How the data were processed

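Single-cell RNA libraries (10x 3′) of sorted bone marrow stromal cells were analyzed, 1 per age (2, 12, and 24 mo), each of 3 pooled mice. The authors deposited UMI counts per gene and cell, made with Cell Ranger 6.1.2 on mm10 per the labels, with no normalization; their Seurat 4.2.3 steps (R 4.0.2) are not in the values. Cells entered the analysis if they had between 200 and 10000 genes, between 500 and 100000 UMIs, and a mitochondrial share below 7.5%, and no doublets were removed in the main analysis. Libraries held 92342526, 84853330, and 104596341 UMIs, of which the Cxcl9+Ly6a- cells held 1260810, 561895, and 1119162.

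The cells and gene lists were chosen with earlier results of these data known. Counts were summed per library and class (12 sums), and tested with edgeR 4.0.16 (R 4.3.3, TMM, filterByExpr, library as a block, 5 gate genes left out), which leaves 6 residual degrees of freedom. Libraries, not cells or mice, are the units. The block takes up differences between libraries, so p-values measure how class differences vary over these 3 libraries, pooled over the 4 classes. The fit was run on simulated sums with the same mean profile in every library and class, apart from genes changed by known folds. These sums hold no differences between libraries, so they do not show how the fit performs on the real sums. CPM have exact Poisson and ratios exact conditional binomial 95% intervals, which cover counting error only. Thinning drew 2000 UMIs per cell. Genes were named by rule: chemokines and interferon signaling genes with at least 20 UMIs, the largest called ratios with a mean log2 CPM of at least 4, the largest ratios between ages, the highest members of each list, 4 niche factors, and the 5 genes most correlated with Cxcl9; other genes were chosen after their values were seen. Cxcl11, Mx1, and Mx2 were not analyzed here. Some genes of the lists are counted but not reported here by name. Gene positions are from GENCODE vM21 (GRCm38). Tools also included Python 3.11.15, scanpy 1.11.5, scipy 1.17.1, and DESeq2 1.42.0. Alternatives were another tool, filter, set of classes, gate, depth, doublet and contaminant removal, sex, and leaving out each library.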

Additional observations from a re-analysis of the deposited data

Results flagged for a closer look

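The ratio of Cxcl9+Ly6a- to double-negative cells had intervals on opposite sides of 1 at different ages for 19 named genes. With 1 library per age, none of these differences was tested. At 24 mo hemoglobin took 6.79% of the UMIs of Cxcl9+Ly6a- cells and 15.4% of those of double-negative cells. Those UMIs are part of the total to which CPM are scaled, so they lower the CPM of other genes more in double-negative cells. Their part in the 24-mo ratios below, several of them near 1, was not tested. Genes with ratios above 1 at 24 mo and below 1 at 12 mo were Apoe (1.09 and 0.928), Cdh11 (1.18 and 0.826), Col1a2 (1.13 and 0.702), Egr1 (1.37 and 0.718), Igfbp4 (1.09 and 0.906), Junb (1.15 and 0.869), and Zeb2 (1.15 and 0.902). Ebf3 and Igfbp5 were above 1 at 24 mo (1.16 and 1.11) and below 1 at 2 mo (0.916 and 0.848).

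Ibsp, Spp1, Kit, and Tagln had ratios above 1 at 2 mo (1.08, 1.07, 2.90, and 3.07) and below 1 at 12 mo (0.730, 0.196, 0.430, and 0.304). Spp1 was again above 1 at 24 mo (1.19), and at 12 mo 1 cell held 58.3% of the Spp1 UMIs of the Cxcl9+Ly6a- cells. The cell cycle genes Birc5, Pcna, Top2a, and Ube2c were above 1 at 12 mo (2.09, 1.6, 2.71, and 3.11) and below 1 at 2 mo (0.670, 0.722, 0.521, and 0.512). Fosb was above 1 at 12 mo (1.73) and below 1 at 2 mo (0.828), and Rps12 was above 1 at 12 mo (1.10) and below 1 at 24 mo (0.929).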

How the results depend on the processing

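In the comparison with double-negative cells, 4 genes were higher and 0 lower. The counts were 48 and 41 without a filter on low counts, 51 and 30 with only these 2 classes in the fit, 33 and 3 with at least 2 Cxcl9 UMIs, 44 and 3 after thinning, 26 and 12 without high doublet scores, 9 and 1 in cells with Y-linked UMIs, and 42 and 4 in cells with 3000 to 10000 UMIs. Leaving out each library gave 0 to 4 higher and 0 lower. Against double-positive cells, where 26 were higher and 26 lower, the counts were 41 and 40 by DESeq2, 101 and 210 without a filter, 5 and 7 with 2 classes, 16 and 14 with at least 2 Cxcl9 UMIs, 83 and 115 without high doublet scores, and 16 and 24 in cells with Y-linked UMIs. Leaving out each library gave 3 to 26 higher and 6 to 74 lower. The cause of these changes was not tested. Among alternatives chosen after seeing the data, cells without hemoglobin over 5% of UMIs gave 15 and 0 against double-negative and 53 and 73 against double-positive cells, cells with Xist gave 3 and 6, and thinned cells classed on their full counts gave 34 and 3. Cxcl10 was called in 15 of 17 alternatives and Gbp2 in 14 of 17. The share of Cxcl9+Ly6a- cells was 6.63%, 8.79%, and 6.14% with at least 2 Cxcl9 UMIs, 8.50% and 11.2% at 2 and 12 mo after thinning, 8.50% at 12 mo in cells with Y-linked UMIs, and 30.2% and 21.3% at 2 and 12 mo in cells with Xist. No log2 ratio of a gene followed over the alternatives changed sign in an alternative that tested it, but the median of niche factors against double-negative cells went from 0.10 to -0.01 in cells with Xist, and between ages 953 genes were higher and 1219 lower in cells with Y-linked UMIs, against 1188 and 1070. Between ages no paired analysis was possible because each age is 1 library; the classes of a library were compared with the library as a block. With 3 libraries and 89 cells at 12 mo, genes with few UMIs could not be compared.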

Other observations

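Interferon genes themselves were nearly undetected in these libraries. Ifng had 1, 1, and 0 UMIs in all 7533, 6821, and 9727 cells, none of them in a gated LepR+ cell. Ifnb1, Ifna1, Ifna2, Ifna4, Ifnl2, and Ifnl3 were at 0 in every library. The cells had been sorted negative for CD45 and lineage markers.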
